A study of Arabidopsis thaliana with 6 samples.

Results

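The regions described here are stretches of the Arabidopsis thaliana genome in which CG methylation differed between the 2 replicates of a genotype, and which lay in sequence retained for all 3 genotypes of the study. Whole-genome bisulfite sequencing was used to measure DNA methylation in endosperm, the nutritive tissue of the seed, hand-dissected 7 days after pollination. WT endosperm came from Ler mothers crossed with Col-0 fathers. For mat nrpd1+/- endosperm the Ler mother was nrpd1-/- and the father was wild-type Col-0, and for pat nrpd1+/- endosperm the mother was wild-type Ler and the Col-0 father was nrpd1-/-. All endosperm was therefore a Ler by Col-0 hybrid, and both heterozygous genotypes kept a functional NRPD1 copy from the other parent. Per the study's methods, the nrpd1a-4 insertion arose in Col-0 and was crossed repeatedly into Ler, and each replicate pooled the endosperm of many seeds. Per a supplementary figure legend, Col-0 segments remained in the Ler nrpd1-/- mothers.

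For each genotype there was 1 list of CG variable regions, in which overlapping 300-bp windows called different between its 2 replicates were merged, and 1 list of sequence in which the fraction of maternal reads lay near the value of endosperm. The members were chosen by position. A CG variable region was kept when it lay wholly inside the maternal-read lists of WT, mat nrpd1+/- and pat nrpd1+/-, which had 89.0 Mb in common. This gave 867 of 1260 regions, namely 109 of 131 in WT, 583 of 901 in mat nrpd1+/- and 175 of 228 in pat nrpd1+/-. The regions were called on the replicate difference itself, so that their presence in a list is a description and not a result. The lists hold positions only. Neither the size of a difference, nor which replicate was more methylated, nor the read depth can be read from them, and the threshold used between replicates is not stated. With 1 list per genotype, no test between genotypes was possible. Shares are given with exact 95% Clopper-Pearson intervals and densities with exact 95% Poisson intervals, which cover the counting of regions only.

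CG methylation in plants is copied to the new strand after replication by the maintenance methyltransferase MET1. It is found in transposable elements, together with methylation in the other contexts, and by itself in the bodies of many moderately and constitutively expressed genes. CHH methylation (H is A, C or T) is set anew in each cell cycle, partly by RNA-directed DNA methylation, in which RNA polymerase IV makes the precursors of the small RNAs. NRPD1 encodes the largest subunit of polymerase IV. In endosperm the maternal genome is in addition demethylated at many loci by the glycosylase DME.

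A small set of places was variable in more than 1 genotype, and 4 of them are shown as examples of the sequence that carries the calls. They were taken from the places whose shared stretch is 300 bp and holds no UTR base, so as to show each pair of genotypes and both intergenic places. The sequences are the plus strand of the TAIR10.1 reference (RefSeq), whose nuclear chromosomes have the same lengths as TAIR10, with each CG dinucleotide in capitals.
IRE1A (WT and pat nrpd1+/-, chr2:7620501-7620800): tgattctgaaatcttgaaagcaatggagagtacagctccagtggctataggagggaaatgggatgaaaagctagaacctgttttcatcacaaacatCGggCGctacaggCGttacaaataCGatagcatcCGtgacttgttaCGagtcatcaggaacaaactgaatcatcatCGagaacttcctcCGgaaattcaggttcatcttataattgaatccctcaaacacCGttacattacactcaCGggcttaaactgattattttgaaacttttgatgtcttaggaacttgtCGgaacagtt
SHOT1 (WT and mat nrpd1+/-, chr3:22330101-22330400): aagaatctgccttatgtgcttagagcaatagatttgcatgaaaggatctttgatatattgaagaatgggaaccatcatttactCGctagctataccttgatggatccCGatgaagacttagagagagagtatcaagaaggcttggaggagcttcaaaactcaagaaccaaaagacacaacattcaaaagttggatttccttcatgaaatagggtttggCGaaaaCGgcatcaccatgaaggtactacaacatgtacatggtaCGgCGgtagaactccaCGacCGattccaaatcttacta
upstream of DET1 (mat nrpd1+/- and pat nrpd1+/-, chr4:6346101-6346400): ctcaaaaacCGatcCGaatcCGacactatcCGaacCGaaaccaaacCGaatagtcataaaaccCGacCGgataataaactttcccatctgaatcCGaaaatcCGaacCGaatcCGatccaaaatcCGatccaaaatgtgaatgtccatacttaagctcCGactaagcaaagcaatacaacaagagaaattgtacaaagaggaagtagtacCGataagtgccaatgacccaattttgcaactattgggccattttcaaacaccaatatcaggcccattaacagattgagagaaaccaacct
intergenic, chromosome 2 (WT and pat nrpd1+/-, chr2:12146101-12146400): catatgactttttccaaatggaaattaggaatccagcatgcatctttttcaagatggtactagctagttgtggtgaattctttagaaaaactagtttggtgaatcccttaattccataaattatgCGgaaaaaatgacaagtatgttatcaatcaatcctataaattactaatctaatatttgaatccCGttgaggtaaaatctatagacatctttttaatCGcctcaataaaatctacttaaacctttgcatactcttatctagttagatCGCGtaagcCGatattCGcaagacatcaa
The stretch in IRE1A, which encodes an endoplasmic reticulum stress sensor with kinase and endoribonuclease activity, spans coding exon and intron and has 11 CG dinucleotides. That in SHOT1, which encodes a mitochondrial transcription termination factor-related protein, lies in coding exon and has 8. The stretch that ends 11 bp upstream of DET1, a repressor of light-regulated development, has 15. The intergenic stretch on chromosome 2 has 7 and lies 587 bp upstream of an RNA gene, AT2G08265. Gene-body and intergenic examples are both present by choice. All 4 had more CG dinucleotides than the median window of the retained sequence, which has 6.

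Members were most numerous in mat nrpd1+/-. Their density in the commonly retained sequence was 1.22 regions per Mb in WT (95% interval 1.005 to 1.48), 6.55 in mat nrpd1+/- (6.03 to 7.10) and 1.97 in pat nrpd1+/- (1.69 to 2.28). The mat nrpd1+/- list was 5.35 times as long as that of WT (exact interval conditional on the total 4.35 to 6.62), and the pat nrpd1+/- list 1.61 times (1.26 to 2.06). Restriction to the common sequence lowered the first ratio, since that of the full lists was 6.88. For comparison, the CHH variable regions lying wholly in the same sequence numbered 4132 for WT, 5656 for mat nrpd1+/- and 4587 for pat nrpd1+/-, and their ratios to WT were 1.37 and 1.11. The excess in mat nrpd1+/- was thus larger among CG regions than among CHH regions. Each density rests on a single pair of libraries, and a difference in depth or conversion between the 2 libraries of a genotype cannot be told apart from a difference between genotypes.

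Nearly all regions that were not members fell outside the mat nrpd1+/- maternal-read list. This was so for 22 of 22 in WT, 317 of 318 in mat nrpd1+/- and 51 of 53 in pat nrpd1+/-, and for 20, 283 and 42 of them this was the only list they missed. These counts also reflect that 19.5 Mb passed the filter in WT and pat nrpd1+/- but not in mat nrpd1+/-. Inside it the density was 1.03 per Mb in WT (0.627 to 1.59) and 2.16 in pat nrpd1+/- (1.55 to 2.91). Both intervals included the density of the same genotype in common sequence. A single region lay on the border, a 500-bp region of mat nrpd1+/- at chr5:1131801-1132300, of which 300 bp were in common sequence.

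The members were short. The median length was 300 bp in each genotype, which is a single window, and single-window regions made up 76.1% of the members in WT (67.03 to 83.8), 69.6% in mat nrpd1+/- (65.7 to 73.4) and 78.9% in pat nrpd1+/- (72.1 to 84.7). The longest members of WT and pat nrpd1+/- were 500 bp, whereas 16 members of mat nrpd1+/- were longer than that. The single-window share of mat nrpd1+/- was 75.2% without the first 4 Mb of chromosome 5, and so lay closer to that of the other genotypes. In all, the members covered 35.8 kb in WT, 202.2 kb in mat nrpd1+/- and 57.2 kb in pat nrpd1+/-.

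The 5 longest members of mat nrpd1+/- were all on chromosome 5. The longest, at chr5:4882701-4883800, covered 1100 bp of exon and intron of AT5G15070 with 26 CG dinucleotides. It was followed by a 900-bp region at chr5:1543601-1544500 across the genes AT5G05190 and AT5G05200, and by a 700-bp region in UPL4, a HECT-type ubiquitin ligase, at chr5:666101-666800. Another 700-bp region lay in AT5G05200 itself, at chr5:1545401-1546100, so that this gene carried 2 of the longest members. The fifth, at chr5:1817001-1817700, overlapped AT5G06043 and was the richest of these in CG dinucleotides, with 34 in 700 bp. Apart from it, these long members were gene-body regions.

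In WT the 500-bp members lay in AT1G15170, in GRV2, an endosomal DnaJ-domain protein, in the intergenic place on chromosome 2 shown above, in scpl16, a serine carboxypeptidase-like gene, and in CYP71B11, a cytochrome P450. The first 5 members of 500 bp in pat nrpd1+/- by position lay in AT1G01540, ECA1, an endoplasmic reticulum calcium pump, XLG3, an extra-large G protein, PTB3, a polypyrimidine tract-binding protein, and RAB7A, a small GTPase of the late endosome. Their CG dinucleotides ranged from 4 in PTB3 to 20 in XLG3. Apart from the intergenic place, these regions overlapped genes, and no gene was among the longest of both genotypes.

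By chromosome, the densities of WT and pat nrpd1+/- varied little, while that of mat nrpd1+/- was highest on chromosome 5. WT ranged from 1.07 regions per Mb on chromosome 1 to 1.35 on chromosome 4, and pat nrpd1+/- from 1.59 on chromosome 4 to 2.35 on chromosome 1. For mat nrpd1+/- the values were 6.17, 4.34, 5.95 and 5.11 on chromosomes 1 to 4 and 9.81 on chromosome 5. Chromosome 5 held 219 of its 583 members, or 37.6%. On each chromosome the interval of mat nrpd1+/- lay above those of both other genotypes.

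**Figure D1:**
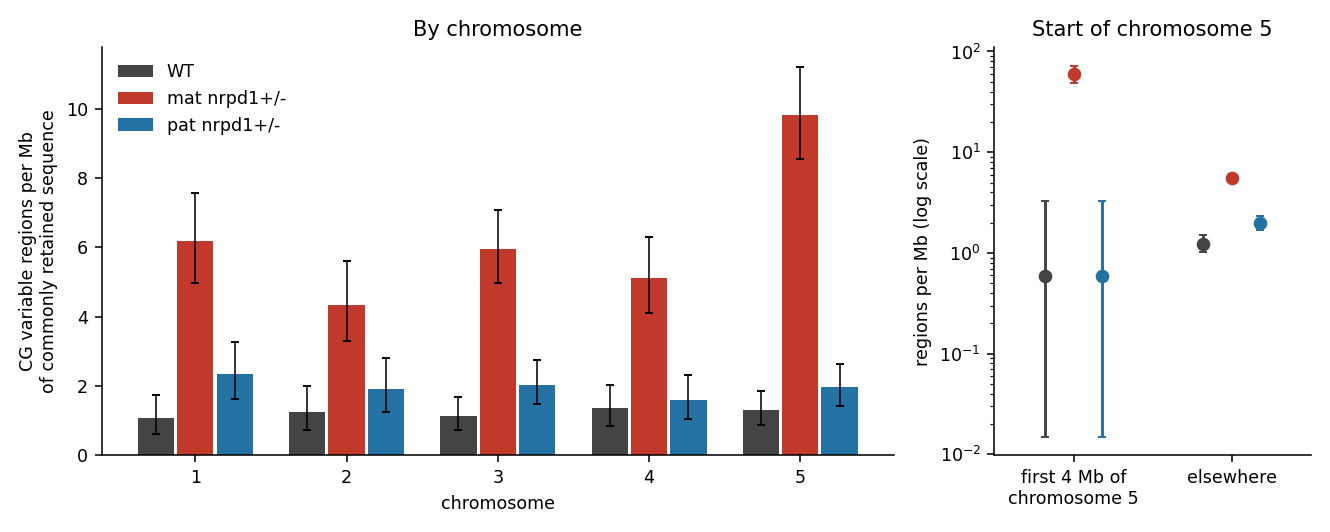
Left, CG variable regions per Mb of commonly retained sequence (y axis) for each chromosome (x axis) and genotype, with exact 95% Poisson error bars. Right, the same density (log axis) in the first 4 Mb of chromosome 5 and elsewhere. The mat nrpd1+/- value at the start of chromosome 5 is 59.1 regions per Mb, against 0.591 in both other genotypes and 5.53 elsewhere in mat nrpd1+/-.

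The excess on chromosome 5 was concentrated in its first 4 Mb. Of the first 4 Mb, 3.832 Mb passed the maternal-read filter in WT and 3.809 Mb in pat nrpd1+/-, but 1.703 Mb in mat nrpd1+/-, which left 1.692 Mb in common. In this sequence mat nrpd1+/- had 100 members, or 59.1 per Mb (48.1 to 71.9), while WT had 1 and pat nrpd1+/- had 1. Elsewhere mat nrpd1+/- had 483 members, or 5.53 per Mb (5.05 to 6.05). The intervals do not cover the choice of the 4-Mb limit. With limits of 3 and 5 Mb, the density of mat nrpd1+/- at the start was 71.9 and 41.1 per Mb. In bins of 1 Mb from the chromosome end, the counts of mat nrpd1+/- were 2, 42, 40 and 16 in the first 4 bins, and 9 in the next. Per Mb of common sequence these were 7.09, 109.4, 79.7, 30.5 and 9.36. The first bin, with 0.282 Mb in common, thus lay near the value elsewhere. The full list of mat nrpd1+/- was also concentrated in these 4 Mb. They held 234 of its 901 CG variable regions (25.97%), of which 33 were in the first bin. The full lists of WT and pat nrpd1+/- had 7 of 131 (5.34%) and 10 of 228 (4.39%) there. The start of chromosome 5 thus held 17.2% of the members of mat nrpd1+/- in 1.692 of 89.0 Mb, and without it the ratio of mat nrpd1+/- to WT was 4.47 in place of 5.35.

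The fraction of maternal reads was also shifted at the start of chromosome 5 in mat nrpd1+/-. This fraction is given per retained stretch, and not for single members. Weighted by sequence, its median in the mat nrpd1+/- list was 0.613 there, against 0.637 over all commonly retained sequence. Counting the stretch value once for each of the 100 members there, the median was 0.597. In the same sequence it was 0.644 in WT and 0.644 in pat nrpd1+/-, above their overall medians of 0.635 and 0.643. Taken over the whole genome, the members did not stand apart in the median of this fraction. Over all 583 members of mat nrpd1+/- the median was 0.636, and over the 109 members of WT and the 175 members of pat nrpd1+/- it was 0.636 and 0.643 in their own lists. The 10th percentile was lower over members of mat nrpd1+/-, at 0.602 against 0.622 in common sequence. It was 0.627 against 0.625 for WT and 0.627 against 0.627 for pat nrpd1+/-. Among the retained stretches of mat nrpd1+/- at the start of chromosome 5, those with the most members were a 129-kb stretch at chr5:2675001-2804000 with 16 members and a maternal fraction of 0.602, and a 76-kb stretch at chr5:1630001-1706000 with 11 and 0.590. The part of the maternal fraction, or of remaining Col-0 segments, in the number of members was not tested.

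Because most of the removed sequence was removed in mat nrpd1+/- only, the members were also described by their distance to it. In mat nrpd1+/- the density was 32.8 per Mb within 10 kb of such sequence (35 members), 14.7 between 10 and 100 kb, 5.76 between 100 kb and 1 Mb and 5.38 farther away. Inside that sequence itself, which these members exclude by their definition, the list of mat nrpd1+/- had 282 regions, or 14.5 per Mb. This comprised 47.5 per Mb on chromosome 5 (39.6 to 56.5), but also 9.39 on chromosome 1 (7.73 to 11.3) and 8.82 on chromosome 2 (6.33 to 12), above the 5.53 of common sequence away from the start of chromosome 5. Near the end of chromosome 1, in the 1-Mb bin numbered 30 from its start, 0.15 Mb was common and held 4 members of mat nrpd1+/- (26.7 per Mb), and the full lists had 29 regions in mat nrpd1+/-, 2 in WT and 0 in pat nrpd1+/-. WT and pat nrpd1+/- showed no such gradient, with 0.936 and 0 per Mb within 10 kb and 1.009 and 2.17 beyond 1 Mb. Without the first 4 Mb of chromosome 5, 7 members of mat nrpd1+/- remained within 10 kb (10 per Mb, 4.02 to 20.6) and the density between 10 and 100 kb was 4.89 (3.19 to 7.16), so that the gradient in commonly retained sequence was much weaker there. Elsewhere in the genome the interval of the nearest class reached that of the other classes.

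**Figure D2:**
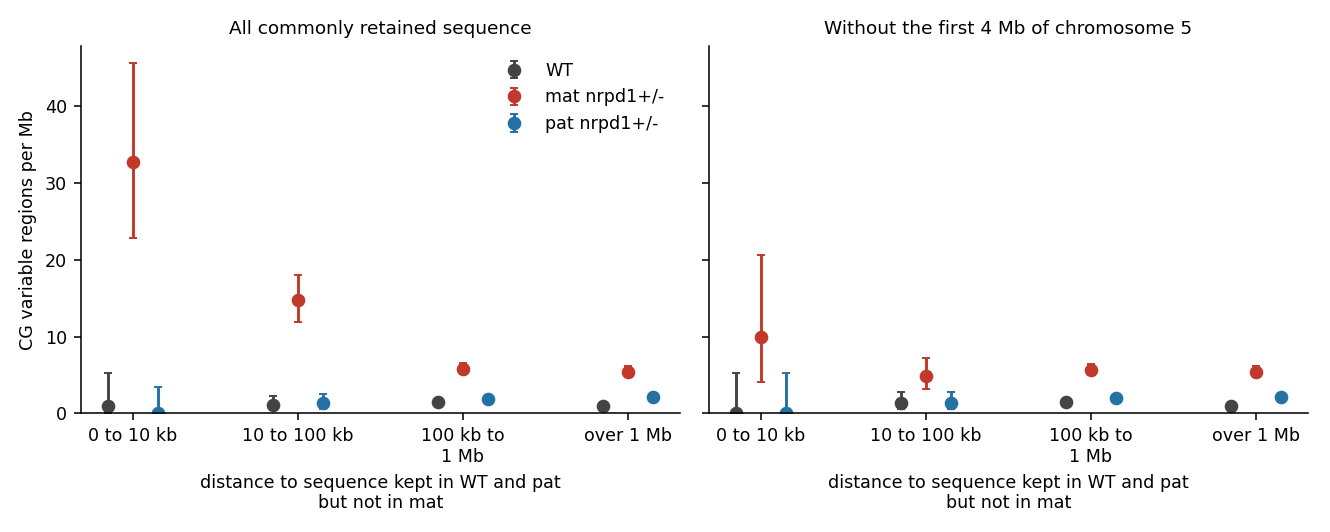
CG variable regions per Mb (y axis) by distance to sequence that passed the maternal-read filter in WT and pat nrpd1+/- but not in mat nrpd1+/- (x axis), for all commonly retained sequence (left) and without the first 4 Mb of chromosome 5 (right). Points are densities and bars exact 95% Poisson intervals. The mat nrpd1+/- value nearest to removed sequence falls from 32.8 to 10 when that segment is left out.

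Members of mat nrpd1+/- lay closer together than those of the other genotypes. The median distance to the nearest member of the same genotype was 262.1 kb in WT, 43.6 kb in mat nrpd1+/- and 181.5 kb in pat nrpd1+/-, an order that follows the number of members. Another member was within 10 kb for 2 of 109 members in WT (1.83%), 150 of 583 in mat nrpd1+/- (25.7%, 22.2 to 29.5) and 8 of 175 in pat nrpd1+/- (4.57%). Leaving out the first 4 Mb of chromosome 5 lowered the mat nrpd1+/- share to 15.3%. When members within 10 kb were chained, mat nrpd1+/- had 16 runs of 3 or more and the other genotypes had 0. The longest run held 7 members in 23.3 kb at chr5:2684901-2708200, and the densest 10 successive members spanned 56.4 kb at chr5:1638101-1694500, while the densest 10 spanned 2191.5 kb in WT and 1792.7 kb in pat nrpd1+/-. Both dense stretches lay in the segment at the start of chromosome 5. The shares within 10 kb and the runs also rise with the number of members, for which no allowance was made.

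**Figure D3:**
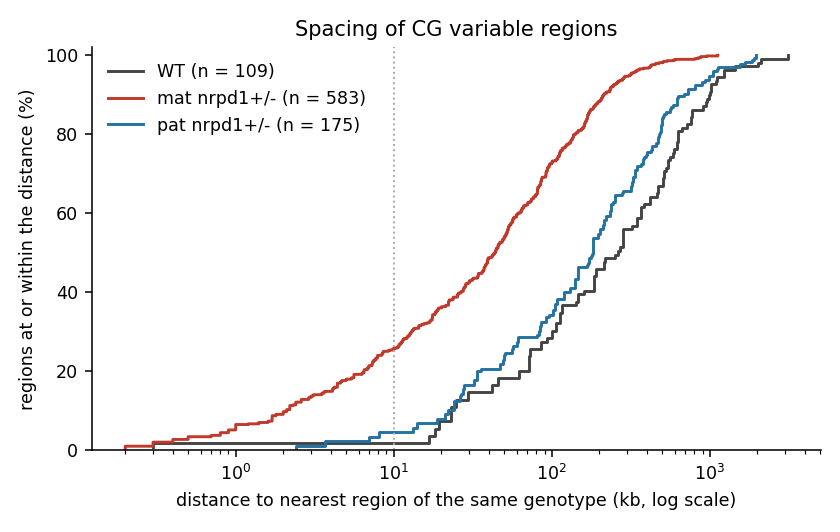
Cumulative share of members (y axis, percent) by distance to the nearest member of the same genotype (x axis, kb, log scale), with the dotted line at 10 kb. At 10 kb the curves stand at 1.83% for WT, 25.7% for mat nrpd1+/- and 4.57% for pat nrpd1+/-.

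In each genotype the members were mainly gene-body regions. A protein-coding gene was overlapped by 88.1% of members in WT (80.5 to 93.5), 90.2% in mat nrpd1+/- (87.5 to 92.5) and 85.1% in pat nrpd1+/- (79.0 to 90.1). Of the 889895 windows of 300 bp that lie wholly in commonly retained sequence, 59.97% overlapped one. These windows overlap each other and include some with too few reads to be called. Among the windows with at least 2 CG dinucleotides the share was 61.0%. The midpoint lay in coding exon for 65.1%, 59.9% and 58.3% of members, against 28.6% of windows, and in intergenic sequence for 8.26%, 7.03% and 9.71%, against 35.3%. Introns held 18.3%, 24.5% and 20% of midpoints (15.5% of windows), and pseudogenes, a class that in this annotation includes many transposon genes, held 3.67%, 3.09% and 5.71% (8.54% of windows). The 3 genotypes thus had like annotation profiles, with overlapping intervals for the share in protein-coding genes.

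Within protein-coding genes the members avoided the 5′ end. When each gene was divided into 5 equal segments along its transcription, the first segment held 4.26% of gene-body members for WT, 4.28% for mat nrpd1+/- and 4.86% for pat nrpd1+/-, against 20.1% of windows. The next-to-last segment held the most, with 28.7%, 35.6% and 32.6%. The genes were longer than those of the windows, with a median length of 3624, 3533 and 3309 bp, against 2926 bp when genes are weighted by their windows. Low methylation at the 5′ end and longer genes are known features of CG gene-body methylation in this species. At the scale of 1-Mb bins, those with under 40% protein-coding sequence had fewer members per Mb than the other bins in each genotype, at 0.626 against 1.37 in WT, 4.15 against 7.14 in mat nrpd1+/- and 1.65 against 2.04 in pat nrpd1+/-. For pat nrpd1+/- the intervals of the 2 kinds of bin overlapped (1.11 to 2.37 and 1.73 to 2.40).

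**Figure D4:**
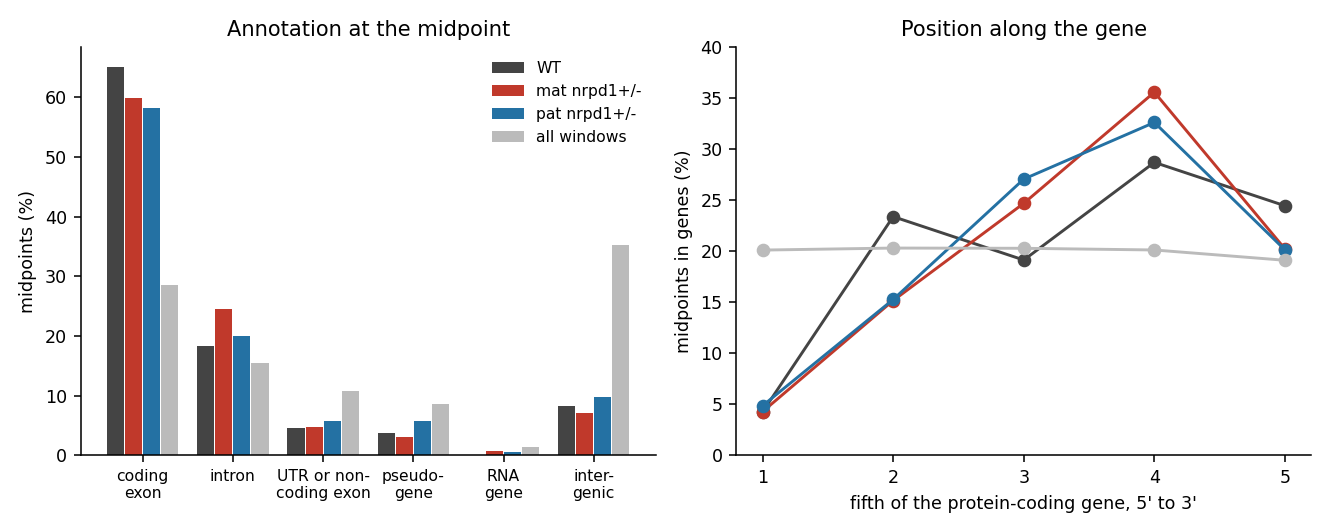
Left, annotation at the midpoint (x axis) of members of each genotype and of all 300-bp windows of the commonly retained sequence, as percent of midpoints (y axis). Right, position of the midpoints that lie in protein-coding genes, in 5 equal segments from the 5′ to the 3′ end (x axis), as percent (y axis). The first segment holds 4.26%, 4.28% and 4.86% of members in WT, mat nrpd1+/- and pat nrpd1+/- and 20.1% of windows.

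Members had a higher GC content than the windows of the retained sequence, while their excess of CG dinucleotides was small or absent within genes. The median number of CG dinucleotides per 300 bp was 8 for WT, 7.5 for mat nrpd1+/- and 8 for pat nrpd1+/-, against 6 in all windows. For members centred in protein-coding genes it was 8, 7 and 8, against 7 in the windows centred there, so that the largest list did not differ from windows in this median within genes. The median GC content was 41%, 40.6% and 41%, against 36.3% in all windows, and within genes it was 41%, 40.7% and 41%, against 38.7%. The members outside protein-coding genes were the richest, with a median of 11 CG dinucleotides per 300 bp over 13 members in WT and 10 over 63 members in mat nrpd1+/-, where windows outside such genes had 5. Calling required several covered cytosines in a window, which bears on the lower tail of these counts: 1 member in all had fewer than 2 CG dinucleotides per 300 bp.

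The members fell into 730 protein-coding genes, and most genes carried a single one. In mat nrpd1+/- 32 of 508 genes carried 2 or more, against 1 of 99 in WT and 0 of 156 in pat nrpd1+/-. Genes with 2 or more become more frequent as a list grows, and no allowance was made for this. Of the 32 genes, 21 started in the first 4 Mb of chromosome 5. AT1G12470 and AT5G08390 carried 3 each. Outside chromosome 5 the genes with 2 included ARF19, a transcription factor of the auxin response, VLN3, an actin-bundling villin, and PWP2, whose yeast counterpart acts in ribosome biogenesis. At the start of chromosome 5 they included EMB2771, AT5G05570 and NFXL2, which lie in the densest stretch of 10 members, and THO1, a subunit of the THO complex in mRNA export. Neighbouring genes that overlap each other were counted with the same member, as for AT5G08390 and AT5G08400.

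Genes of the methylation machinery and of endosperm development were looked up in lists of locus IDs written from background knowledge. Of 11 genes of DNA methylation and demethylation, 6 lay wholly in commonly retained sequence, and 1 of them had a member within 1 kb, namely CMT2, a chromomethylase of non-CG sites, in mat nrpd1+/-. None of the 14 retained genes of RNA-directed DNA methylation (of 16) had one in any genotype. Of 17 retained genes (of 23) in a list of imprinted genes and endosperm regulators, SWN, a histone methyltransferase of Polycomb repressive complex 2, had 1, again in mat nrpd1+/-. Over all 20673 retained protein-coding genes the shares with a member within 1 kb were 0.701% for WT, 3.41% for mat nrpd1+/- and 1.04% for pat nrpd1+/-, and the lists are too small to be told from these shares. The symbols of 21 of the 23 loci in the last list matched the reference, and PEG2 and AGL40 were taken by locus only, AGL40 among the 17 retained. Outside the lists, KTF1, which binds AGO4 in RNA-directed DNA methylation, carried 2 members of mat nrpd1+/- at the start of chromosome 5, and IKU2, a receptor-like kinase of endosperm growth, carried 1. Both were chosen after their values were seen.

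Few members recurred between genotypes, but more than windows at large. There were 13 places where members of 2 genotypes overlapped by at least 1 bp and 0 where all 3 did, among 854 places in all. They comprised 3 places of WT and mat nrpd1+/-, 3 of WT and pat nrpd1+/- and 7 of mat nrpd1+/- and pat nrpd1+/-. As a share of each list, 6 of 109 members of WT (5.50%, 2.05 to 11.6), 10 of 583 of mat nrpd1+/- (1.72%, 0.826 to 3.13) and 10 of 175 of pat nrpd1+/- (5.71%, 2.77 to 10.3) overlapped a CG variable region of another genotype. All overlapping regions were themselves members.

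The shares of all windows that overlapped a CG variable region were 0.0647% for WT, 0.358% for mat nrpd1+/- and 0.104% for pat nrpd1+/-. Beside these, 2.75% of WT members overlapped the mat nrpd1+/- list and 2.75% the pat nrpd1+/- list. For mat nrpd1+/- members the shares were 0.515% with the WT list and 1.201% with the pat nrpd1+/- list, and for pat nrpd1+/- members 1.71% and 4% with the lists of WT and mat nrpd1+/-. In each of the 6 pairings the share of members was above that of windows, and the lower end of its interval was above it too. The comparison held within gene bodies: of members centred in protein-coding genes, 3.13% of WT and 3.40% of pat nrpd1+/- overlapped the mat nrpd1+/- list, against 0.581% of windows centred there. In that comparison the lower end for WT was 0.649% (3 of 96 members), close to the value of the windows. The windows include sequence without CG methylation, in which a difference between replicates could not arise, and methylation levels are not in the lists, so the recurrence beyond that of methylated sequence was not tested.

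The 13 places were mostly gene bodies. They overlapped a protein-coding gene in 11 cases and had the same start and end in both genotypes in 6. Between WT and mat nrpd1+/- the genes were PWP2 (100 bp shared), SHOT1 (300 bp) and EMB3010, a gene for ribosomal protein S6 (300 bp, chr5:3258901-3259200). Between WT and pat nrpd1+/- they were IRE1A (300 bp), the intergenic place on chromosome 2 (300 bp) and the junction of PPX1, a protein phosphatase catalytic subunit, with AT4G26730 (300 bp, chr4:13472301-13472600).

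The mat nrpd1+/- and pat nrpd1+/- members coincided exactly in RanBPM, a gene for a Ran-binding protein, over 400 bp at chr1:13051401-13051800. They also coincided exactly, over 300 bp, in AT3G17770 (chr3:6082601-6082900), AT4G13550 (chr4:7870801-7871100) and UBC3, a ubiquitin-conjugating enzyme (chr5:25105001-25105300). They overlapped in part upstream of DET1 (300 bp), in AGD8, an ARF GTPase-activating protein (200 bp), and in AT5G07710 (100 bp). AT5G07710 lies at the start of chromosome 5 and held the single pat nrpd1+/- member there. The single WT member of that segment was the one in EMB3010, so that both overlapped a member of mat nrpd1+/-. Members of mat nrpd1+/- had a density of 59.1 per Mb in that segment, against 5.53 elsewhere. The share of its windows that overlapped the mat nrpd1+/- list was not computed. At the level of genes, 33 of the 730 genes carried members of 2 genotypes and 0 of all 3. They comprised 12 genes for WT and mat nrpd1+/-, 5 for WT and pat nrpd1+/- and 16 for mat nrpd1+/- and pat nrpd1+/-. Most shared genes were thus variable in different parts of the gene. Members lay in 99 genes for WT, 508 for mat nrpd1+/- and 156 for pat nrpd1+/-, beside 20673 retained protein-coding genes. The number of shared genes that lists of these sizes would give was not computed.

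CG and CHH variability seldom met. A CHH variable region of the same genotype was overlapped by 2 of 109 members in WT (1.83%, 0.223 to 6.47), 9 of 583 in mat nrpd1+/- (1.54%, 0.708 to 2.91) and 3 of 175 in pat nrpd1+/- (1.71%, 0.355 to 4.93). Of all windows, 2.81% overlapped a CHH variable region of WT, 3.95% one of mat nrpd1+/- and 3.13% one of pat nrpd1+/-. The share of members was therefore below that of windows in mat nrpd1+/-, whereas the intervals of WT and pat nrpd1+/- included it. Members centred in protein-coding genes gave 1.35% in mat nrpd1+/- (0.543 to 2.75), against 2.75% of the windows centred there. Within genes the value of the windows thus lay at the upper end of the interval, and the lower overlap could not be told from the placement of the members in genes. Within 1 kb, a CHH variable region was found for 7.34%, 9.09% and 9.14% of members, against 11.4%, 15.4% and 12.5% of windows.

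Those members that did overlap a CHH region were of several kinds. In WT they lay in PERK8, a receptor-like kinase of the proline-rich extensin-like family, and at AT2G25650 and emb2410. In mat nrpd1+/- they included AT2G25730 and AT5G06670, where the CHH region recurred in WT, HK5, a histidine kinase, where it recurred in pat nrpd1+/-, the 700-bp member at AT5G06043, and the pseudogene AT1G36690. In pat nrpd1+/- they lay in HRGP1, a cell wall glycoprotein, and at 2 intergenic places. The single pat nrpd1+/- member whose whole length was CHH variable in its own genotype, at chr5:10594901-10595200, was CHH variable in WT as well. The members of this kind were chosen for naming after their values were seen.

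**Figure D5:**
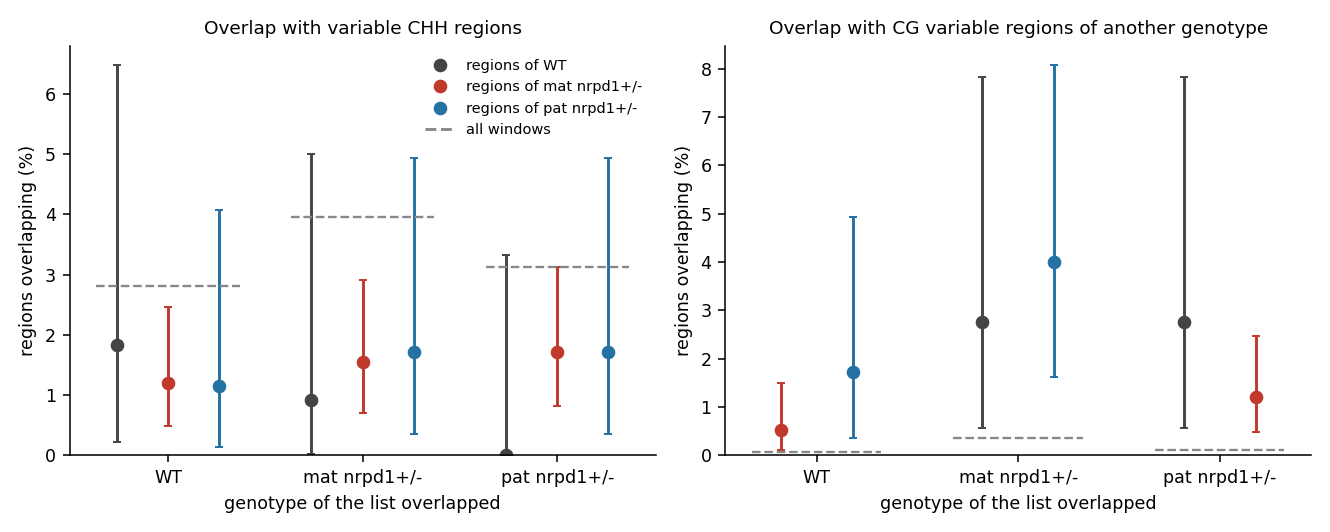
Left, percent of members of each genotype (point colour, y axis) that overlap a CHH variable region of the genotype on the x axis. Right, the same for CG variable regions of another genotype. Bars are exact 95% Clopper-Pearson intervals and dashed lines the percent of all 300-bp windows. For CHH the points lie below the lines (1.54% against 3.95% within mat nrpd1+/-), and for CG above them (4% of pat nrpd1+/- members against 0.358% of windows).

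Overlap with CG differentially methylated regions (DMRs, merged windows with a difference of at least 30 percentage points between pooled genotypes) was for most lists limited by construction. Per the study's methods, regions that varied between replicates were left out of further analysis. A member would then mainly overlap the DMR list that does not involve its own genotype. Of all windows, 0.743% overlapped a CG DMR between pat nrpd1+/- and mat nrpd1+/-, 0.366% one between WT and mat nrpd1+/- and 0.395% one between WT and pat nrpd1+/-. In WT, 2 members (1.83%, 0.223 to 6.47) overlapped the first list, in mat nrpd1+/- 3 members (0.515%, 0.106 to 1.496) overlapped the last, and in pat nrpd1+/- 3 members (1.71%, 0.355 to 4.93) overlapped the list of WT and mat nrpd1+/-. In these lists the intervals of WT and mat nrpd1+/- included the share of windows, and that of pat nrpd1+/- began just below it. Only for pat nrpd1+/- did 2 members also overlap a list of their own genotype, that of pat nrpd1+/- and mat nrpd1+/-. Their share was 1.14% (0.139 to 4.07), an interval that included the 0.743% of windows. For pat nrpd1+/- variable regions, the clearing was thus not visible in that list.

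The deposited difference is the heterozygote minus WT, or mat nrpd1+/- minus pat nrpd1+/-, in percentage points. The DMRs met by WT members were less methylated in mat nrpd1+/- than in pat nrpd1+/-, by −40 points in MGT9, a magnesium transporter, and −31.8 points in SPDS3, an aminopropyltransferase of polyamine synthesis. Those met by mat nrpd1+/- members showed a difference of pat nrpd1+/- from WT of −46.0 points at the pseudogene AT5G28285, 34.7 points in AT5G13440 and 32.5 points in AT4G35140. AT4G35140 carried 2 CG members of mat nrpd1+/-, and the one under the DMR was also CHH variable in both mat nrpd1+/- and pat nrpd1+/-. It was thus the one member that met a DMR and a CHH variable region.

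Among members of pat nrpd1+/-, the DMRs between WT and mat nrpd1+/- had differences of 41.5 points in PTB3, 35.1 points in XLG3 and −31.8 points at the pseudogene AT3G47230. The members in PTB3 and XLG3 are among the longest of pat nrpd1+/-. The same member at AT3G47230 met the DMR of mat nrpd1+/- minus pat nrpd1+/- with −34.9 points, and a member in PUM5, a Pumilio RNA-binding protein, met another with 33.7 points. Positive and negative differences both occurred, and with 10 overlaps in all no direction can be read from them.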

How the data were processed

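The measurements are whole-genome bisulfite sequencing of 6 endosperm samples, 2 replicates for each of 3 genotypes, grouped by the labels. Per the labels and the methods, reads were trimmed by the authors (Trim Galore) and mapped to TAIR10 (Bismark), with mates handled as separate, non-directional reads. Methylation was computed in windows of 300 bp overlapping by 200 bp, for windows with enough informative cytosines and reads. Regions called different between the replicates of a genotype were deposited as positions without a value. The fraction of maternal reads was deposited by the authors per retained stretch, in a list that combines the replicates. The other deposited values are DMR differences in percentage points, printed as deposited for the 10 overlaps only. In the CHH list of WT and pat nrpd1+/- the named column holds a length, and only positions were used. No list gives counts, so depth is unknown, no sample could be weighted by it, and PCR copies are not independent molecules.

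Touching rows of the maternal-read lists were joined, and their intersection defined the common sequence. Overlap meant at least 1 bp unless stated. Annotation and sequence came from TAIR10.1 (RefSeq). Python 3.11.15, NumPy 2.4.6, SciPy 1.17.1 and Matplotlib 3.10.9 were used. The interval code was tested on simulated data. The regions and gene lists were chosen with earlier results of these data known. Regions were named by a rule: all those shared by 2 genotypes, the 5 longest per genotype, those overlapping a CG DMR, and the densest 10 of mat nrpd1+/-. Other named regions and genes were picked after their values were seen. Alternatives were another membership rule, each chromosome left out, other distances and overlaps, and longer regions only. Leaving out the first 4 Mb of chromosome 5 and splitting by gene bodies were chosen after seeing the data.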

Additional observations from a re-analysis of the deposited data

How the results depend on the processing

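Of 108 values recomputed under alternatives, 88 stayed within the interval of the value reported (for counts, within 1.5 times) and 20 did not. Some alternatives could hardly move a value, so the 88 are not a measure of robustness. Membership inside a single row of each maternal-read list, for example, gave the same 109, 583 and 175 members. The total also includes alternatives chosen after seeing the data. Changes in the order of the genotypes were not scored. Members longer than 300 bp numbered 26 for WT, 177 for mat nrpd1+/- and 37 for pat nrpd1+/-, with a ratio of mat nrpd1+/- to WT of 6.81. Without chromosome 5, mat nrpd1+/- had 364 members and a ratio of 4.55. Without the first 4 Mb of chromosome 5, an alternative chosen after seeing the data, its single-window share was 75.2% and its share within 10 kb of another member 15.3%. Within 5 kb that share was 18.01% and within 20 kb 36.0%, and within 20 kb WT reached 7.34%. Counting neighbours within 1 kb, recurrence was 12.8%, 4.80% and 11.4% in WT, mat nrpd1+/- and pat nrpd1+/-. Of all windows, 0.308%, 1.63% and 0.497% had a CG variable region of WT, mat nrpd1+/- and pat nrpd1+/- within 1 kb. Proximity to a CHH variable region was 7.34%, 9.09% and 9.14% of members, against 11.4%, 15.4% and 12.5% of windows. A CG DMR was within 1 kb of 8, 34 and 13 members, and the share of windows was not computed for this. Among members longer than 300 bp, 0% in WT overlapped a CHH variable region (0 of 26).

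No paired analysis was possible because the lists hold no values per replicate, and for the same reason no replicate was left out. The lists give neither read depth nor methylation levels, so the number of windows open to a call in each genotype is unknown. Each genotype rests on 2 libraries compared with each other.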
